A study of Mus musculus with 60 samples.

Results

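Cyclins are the regulatory partners of cyclin-dependent kinases, and their rise and destruction order the steps of cell division. D-type cyclins are made in response to growth factors and, with Cdk4 or Cdk6, phosphorylate the retinoblastoma protein. E-type cyclins and Cdk2 then drive entry into S phase, and cyclin A2 and the B-type cyclins with Cdk1 carry cells through G2 and into mitosis, after which the anaphase-promoting complex degrades them. In the healthy liver cholangiocytes rarely divide, whereas organoids grown from bile ducts proliferate over many passages, so these genes report on how actively a culture cycles.

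The 8 genes described here are Ccnd1, Ccnd2 and Ccnd3 (D type), Ccne1 and Ccne2 (E type), Ccna2 (A type), and Ccnb1 and Ccnb2 (B type). They were taken by name, as the rows of 3 count tables whose Ensembl identifier maps to these symbols, out of 31354 genes found in any table. All 8 were present in all 3 tables and all 8 passed the filter on low counts in each. The rule uses names and no measured value.

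The organoids were intrahepatic cholangiocyte organoids from C57BL/6N male mice about 3 months old, with no transgene or drug in any group. In the culture experiment, 3 cultures (each pooled from several animals) were kept in Matrigel domes (n = 3) or moved to a dilute Matrigel suspension on an orbital shaker (n = 3). In the passage experiment, bulk cultures of Sets 1, 3 and 4 were sampled at passage 4 and at passage 11 as labelled, with 2 technical replicates that were summed here (n = 3 cultures for each passage). A set is the culture of 1 mouse. In the single-organoid experiment, each library is 1 organoid picked from suspension culture. Of 42 libraries, the 35 the study kept were used, 8 of Set 1 (passage 11), 10 of Set 2 (passage 3), 5 of Set 3 (passage 3) and 12 of Set 4 (passage 4). Each set being 1 mouse at 1 passage, mouse and passage cannot be told apart between sets of single organoids, and P-values there measure spread between organoids of 1 culture each. Levels are CPM, counts scaled to a common library total. They come from the 3′ end of transcripts and are compared within a gene, within 1 table.

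Library totals were 1776490 to 14761853 counts in domes, 3837619 to 12089655 in suspension, 639086 to 3175147 in the passage libraries before summing and 1059002 to 11175868 in the kept organoids. The cholangiocyte markers were present throughout: all 10 genes of the list were detected in domes, suspension and every kept organoid, with a summed level of 3016 to 7011 CPM in organoids. Mesenchymal markers summed to at most 0.856 CPM in any library of the 3 tables and endothelial markers to at most 4.32 CPM. The macrophage list summed to 6.16–67.4 CPM in domes against 3.82–10.4 CPM in suspension. Much of that sum was the single gene Cd68, at 5.35–65.2 CPM in domes and 3.11–8.86 CPM in suspension. The hepatocyte list summed to 222–865 CPM in domes and 285–768 CPM in suspension, and to 709–1263 CPM in the libraries labelled passage 11 against 303–761 CPM in those labelled passage 4. Much of that sum was Ttr, at 189–786 CPM in domes and 238–700 CPM in suspension. Ttr was 657–1194 CPM in the libraries labelled passage 11 and 261–712 CPM in those labelled passage 4. Alb, of the same list, was at most 5.96 CPM in these groups. Mitochondrial genes took 1.64–2.02% of counts in domes and 3.72–4.02% in suspension, and 0.891–1.76% in the libraries labelled passage 11 against 1.81–2.63% in those labelled passage 4. The part of these shifts in the results below was not tested.

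Promoter sequence, from 250 bases before to 50 bases after the transcription start, was available from RefSeq (GRCm38.p6) for 4 of the 8 genes: Ccnb1, Ccnb2, Ccnd3 and Ccne1. Those of the B-type cyclins are shown because they hold motifs known from mitotic promoters. Both genes, like Ccne1, were called lower in domes and higher in the libraries labelled passage 11. Ccnb1 lies on the minus strand at chr13:100786437-100786736 and Ccnb2 on the minus strand at chr9:70421505-70421804. Both are written in the direction of transcription in lower case, with capitals marking CCAAT boxes, the motif bound by NF-Y, and TTTGAA, the core of the cell cycle homology region through which MuvB complexes act.
Ccnb1: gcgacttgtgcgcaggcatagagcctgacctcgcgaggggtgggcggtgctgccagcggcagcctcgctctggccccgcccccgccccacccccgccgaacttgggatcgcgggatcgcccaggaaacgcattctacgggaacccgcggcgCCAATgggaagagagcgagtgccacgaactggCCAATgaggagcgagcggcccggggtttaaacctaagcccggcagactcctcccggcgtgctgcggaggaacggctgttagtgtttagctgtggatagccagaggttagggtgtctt
Ccnb2: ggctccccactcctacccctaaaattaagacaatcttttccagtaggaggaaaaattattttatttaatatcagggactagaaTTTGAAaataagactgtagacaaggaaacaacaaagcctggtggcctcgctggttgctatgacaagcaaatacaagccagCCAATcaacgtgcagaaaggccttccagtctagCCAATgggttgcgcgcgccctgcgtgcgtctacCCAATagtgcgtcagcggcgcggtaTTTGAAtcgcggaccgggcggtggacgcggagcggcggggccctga
The Ccnb1 window holds 2 CCAAT boxes, at 99 and 67 bases before the start, and no TTTGAA. The Ccnb2 window holds 3 CCAAT boxes, at 87, 54 and 21 bases before the start, and TTTGAA at 167 bases before and at base 5 of the transcript. Searched on both strands, CCAAT occurs at least once in 37.41%, at least 2 times in 11.7% and at least 3 times in 3.37% of 32851 promoter windows of the same length, and TTTGAA in 17.89%. The Ccne1 window holds neither motif. Of the 2 promoters listed for Ccnd3, 1 holds a single CCAAT box. The E2F letters TTTGGCGC (0.51% of all windows) and TTTCCCGC (1.07%) were found in none of these 5 windows. Only these 2 exact forms were searched, so other forms of the E2F site may be present. The motif matches describe the letters and not binding.

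The comparison of domes with suspension asks how the growth environment changes cyclin mRNA. All 8 cyclins had a lower mean in domes, and 5 of the 8 passed the test: both E-type cyclins, cyclin A2 and both B-type cyclins. The E-type cyclins differed most, Ccne2 by 8.57-fold and Ccne1 by 5.22-fold, and the mitotic cyclins by 2.45 to 3.39-fold. No D-type cyclin passed in this fit, which did not pair the cultures. With the replicate number as a block, Ccnd1 passed too, and 6 of the 8 cyclins were called. Of all 12699 genes tested, 14.7% were called lower in domes.

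The E-type cyclins, which with Cdk2 commit cells to DNA replication, were scarce in domes. Ccne1 (chr7:38097984-38107534, minus strand) stood at 3.05, 1.59 and 5.63 CPM in domes 1 to 3 and at 21.0, 23.5 and 21.8 CPM in suspensions 1 to 3. The groups did not overlap, and the suspension cultures lay close together. The log2 fold-change, dome minus suspension, was −2.38 (SE 0.30, edgeR adj. P-value 0.00117). Ccne2 (chr4:11191351-11204779, plus strand) gave 6, 0 and 2 counts in the dome libraries, or 0.406, 0 and 1.13 CPM, and 7.17, 4.43 and 3.97 CPM in suspension. It fell by 3.10 on the log2 scale (SE 0.58, adj. P-value 0.00500), an estimate that rests on these 8 dome counts. 

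The mitotic cyclins moved alike. Ccna2 (chr3:36564865-36572150, minus strand), which acts in both S phase and G2, was 18.8, 4.24 and 30.4 CPM in domes and 85.1, 63.8 and 79.4 CPM in suspension. Its log2 fold-change was −1.76 (SE 0.38, adj. P-value 0.00841). Ccnb1 (chr13:100778650-100786570, minus strand), the main cyclin of mitotic entry, was 29.0, 12.2 and 52.9 CPM in domes and 98.7, 84.4 and 104 CPM in suspension. Dome 2 was lowest and dome 3 highest for all 3 genes, and no dome reached a suspension culture. The change of Ccnb1 was −1.29 (SE 0.31, adj. P-value 0.0132). Ccnb2 (chr9:70407692-70421547, minus strand), its partner with overlapping function, was 25.7, 9.02 and 41.7 CPM in domes and 89.1, 73.0 and 93.9 CPM in suspension (−1.41, SE 0.32, adj. P-value 0.0102).

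The D-type cyclins were less uniform. Ccnd1 (chr7:144929931-144939925, minus strand), a target of mitogen and Wnt signalling, was 155, 58.3 and 58.5 CPM in domes and 308, 229 and 216 CPM in suspension. The groups did not overlap, and the estimate of −1.05 (SE 0.36) missed the threshold (adj. P-value 0.0533). With the replicate number as a block it was −1.20 and passed (adj. P-value 0.0024), as it did without dome 1 (−1.68, adj. P-value 0.00253). Ccnd2 (chr6:127125162-127152193, minus strand) was 711 CPM in dome 1, above all suspension cultures, against 107 and 156 CPM in domes 2 and 3 and 515 to 530 CPM in suspension. The call turned on that single culture: the log2 fold-change was −0.31 (95% confidence interval −1.54 to 0.92, adj. P-value 0.703) with dome 1 and −1.61 (adj. P-value 0.00103) without it. Dome 1 was also the deepest library of the experiment. Ccnd3 (chr17:47505051-47599691, plus strand) was 11.2, 6.36 and 17.4 CPM in domes and 16.2, 21.9 and 20.3 CPM in suspension. Its groups overlapped, and its interval of −0.99 to 0.20 spans no change (adj. P-value 0.284).

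**Figure D1:**
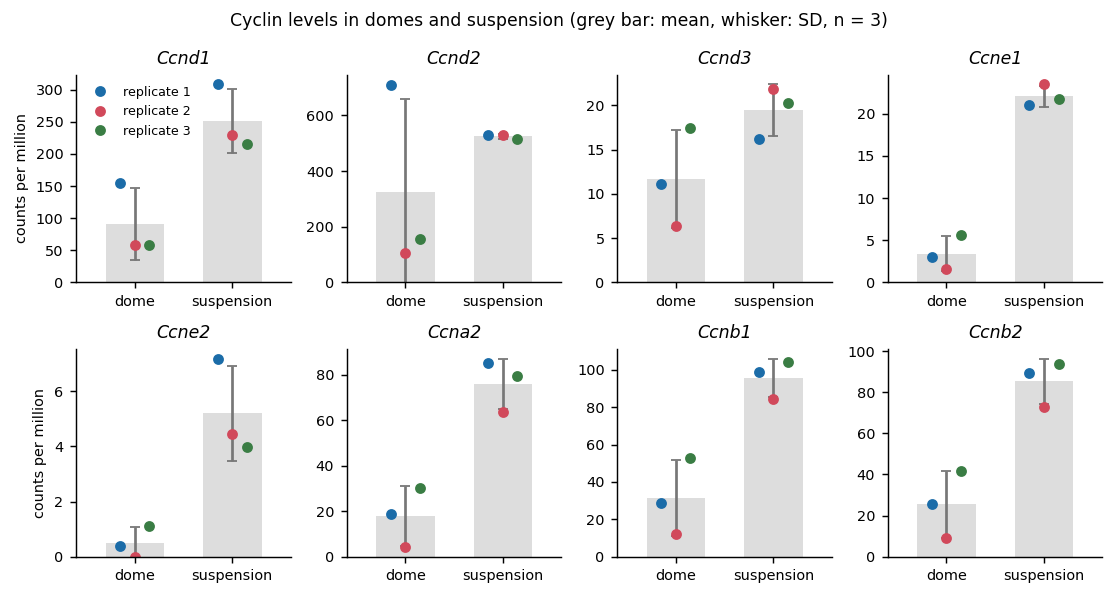
CPM of each cyclin (y axis, from 0) in domes and suspension (x axis), with 1 point per culture coloured by replicate number, grey bars for the mean and whiskers for the SD (n = 3; whiskers are cut off at 0). The suspension points of Ccne1, Ccne2, Ccna2, Ccnb1, Ccnb2 and Ccnd1 all lie above the dome points, while dome 1 stands above all suspension cultures for Ccnd2.

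In raw CPM, 6 of the 8 cyclins were lower in every dome than in every suspension culture, beside 37.9% of all genes tested. Most genes sit lower in domes before scaling: with library totals only, the median of all genes was −0.42 on the log2 scale, against −0.04 after TMM scaling, and 21.8% of called genes were higher in domes, against 50.5% with TMM. After TMM the same number of cyclins, 6, did not overlap, beside 25.8% of all genes. With library totals only, the 8 cyclins kept their direction and 6 passed. With all libraries thinned to the smallest total, 2 passed (Ccne1 and Ccnb2). Without a call there, the estimates were −1.48 for Ccna2, −1.26 for Ccnb1 and −2.66 for Ccne2, against −1.76, −1.29 and −3.10 at full depth. Fewer cycling cells and less cyclin mRNA in each cell cannot be told apart in these bulk samples.

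Partners and regulators of the cyclins were read from the same fit. Among 5 cyclin-dependent kinases, 3 were lower in domes and none higher, the largest change being Cdk6, the kinase of D-type cyclins, at −1.57 (adj. P-value 0.00297). Of 7 kinase inhibitors, 2 were higher and none lower, beside 1907 of all 12699 genes tested called higher in domes. Cdkn1a (p21) led them, with a mean of 454 CPM in domes and 132 CPM in suspension (2.25, adj. P-value 0.00499). Of 17 genes for E2F, MuvB and Foxm1 transcription, 5 were lower, led by the E2F repressor E2f7 (−2.28, adj. P-value 0.0221). Of 10 mitotic entry kinases and phosphatases, 5 were lower, led by Bora, an activator of Aurora A (−2.39, adj. P-value 0.00207).

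In the list for cyclin proteolysis, 7 of 15 genes were lower and 1 was higher. Fbxo5, the Emi1 inhibitor of the anaphase-promoting complex, fell by 2.53 on the log2 scale (adj. P-value 0.000817), while Fzr1, which activates that complex in G1, rose by 0.81 (adj. P-value 0.0375). Of 14 other cyclins tested, 4 were lower, led by the transcriptional cyclin Ccnt2 (−1.33, adj. P-value 0.0109), and none of the 3 Rb family genes passed. Upstream genes of the D-type cyclins were lower in 3 of 10, led by Etv4 (−1.59, adj. P-value 0.00765). The proliferation gene Mki67 was 4.61, 6.89 and 6.75 CPM in domes and 40.9, 24.8 and 41.0 CPM in suspension (−2.26, SE 0.30, adj. P-value 0.00149). The median over the 8 cyclins was −1.35, against −0.64 for the kinases and −0.04 for all genes.

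The passage experiment asks how long culture changes the same genes within 3 animals. The direction of every difference here rests on the passage labels, which no value in the counts checks, and it would be the opposite if the labels were exchanged. In the libraries labelled passage 11, 5 of 8 cyclins were higher than in those labelled passage 4: Ccna2 (5.31-fold), Ccne1 (4.07-fold), Ccnb1 (3.52-fold), Ccnb2 (2.94-fold) and Ccnd2 (2.26-fold). Of all 13738 genes, 10.1% were called higher. None of the cyclins was called lower. The values given come from a fit that did not pair the cultures by animal. Adding the replicate block changed no cyclin call.

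Ccna2 was 15.3, 16.8 and 13.6 CPM in Sets 1, 3 and 4 at passage 4 and 60.9, 84.0 and 103 CPM at passage 11. Each animal rose by 3.97 to 7.59-fold, and the log2 fold-change was 2.41 (SE 0.18, edgeR adj. P-value 0.000164), the largest among the cyclins. Ccnb1 was 19.9, 19.1 and 24.4 CPM at passage 4 and 60.3, 68.0 and 100 CPM at passage 11 (1.82, SE 0.18, adj. P-value 0.000418). Ccnb2 was 19.7, 31.7 and 34.2 CPM at passage 4 and 67.1, 79.6 and 112 CPM at passage 11 (1.56, SE 0.21, adj. P-value 0.00160). In each of these 3 genes Set 4 was the highest and Set 1 the lowest culture at passage 11.

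Ccne1 had 7.67, 2.08 and 3.25 CPM at passage 4 and 11.8, 18.2 and 22.9 CPM at passage 11. The rise was uneven, 1.54-fold in Set 1 and 8.78-fold in Set 3, giving an estimate of 2.02 (SE 0.40, adj. P-value 0.00802). With all libraries thinned to the smallest total it was 2.28 and lost the call (adj. P-value 0.131). Ccne2 was near the limit of detection, with 1 to 3 counts a culture at passage 4 and 1 to 9 at passage 11. It did not pass (95% confidence interval 0.15 to 2.94, adj. P-value 0.110), although the groups did not overlap.

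Among the D-type cyclins only Ccnd2 passed. Ccnd2 was 184, 116 and 199 CPM at passage 4 and 434, 364 and 313 CPM at passage 11 (1.18, SE 0.22, adj. P-value 0.00624). Ccnd1 was 129, 79.7 and 93.1 CPM at passage 4 and 145, 132 and 121 CPM at passage 11. It was higher in 3 of 3 animals, by 1.12 to 1.65-fold, but the groups overlapped through Set 1 and the change of 0.41 did not pass (adj. P-value 0.164). Without Set 1 at passage 4 it was 0.64 and passed (adj. P-value 0.0329). Ccnd3 was 4.09, 5.47 and 4.70 CPM at passage 4 and 6.01, 6.88 and 3.36 CPM at passage 11, with an interval of −0.40 to 0.99.

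**Figure D2:**
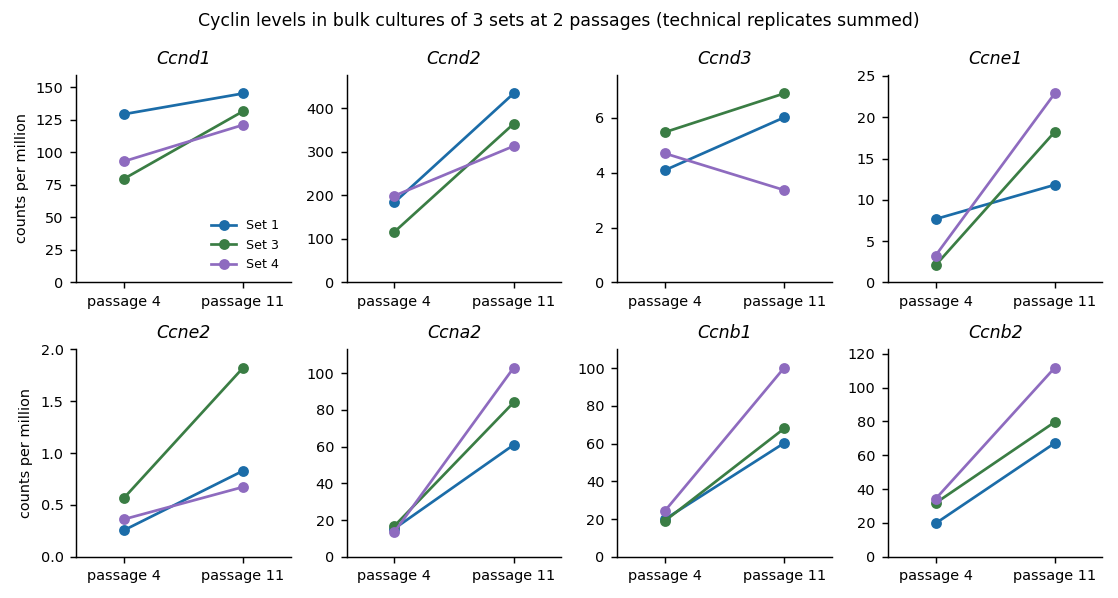
CPM of each cyclin (y axis, from 0) in bulk cultures labelled passage 4 and passage 11 (x axis), 1 line per set, with technical replicates summed. All 3 lines rise for 7 of the 8 genes, and for Ccnd3 the line of Set 4 falls from 4.70 to 3.36 CPM.

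Here 6 of 8 cyclins did not overlap in raw CPM, all higher at passage 11, beside 18.2% of all genes. The pairs of technical replicates show the precision. Ccnb1 differed by at most 1.35-fold within a pair and Ccna2 by at most 1.79-fold. Ccnd3, with few counts, differed by up to 5.30-fold.

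Some partners and regulators were called in the same libraries. Of the 5 kinases, 3 were higher, led by the mitotic kinase Cdk1 (means of 67.8 CPM at passage 4 and 177 CPM at passage 11, log2 fold-change 1.38, adj. P-value 0.000353). Cdc20, which targets A- and B-type cyclins for destruction, rose by 1.97 (adj. P-value 7.35e-05), and 7 of 15 proteolysis genes were higher and none lower. Plk1 led the 4 of 9 mitotic entry genes that were higher (2.11, adj. P-value 0.000343), and E2f8, an E2F repressor, led 7 of 17 in the E2F, MuvB and Foxm1 list (2.20, adj. P-value 0.00710).

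Kinase inhibitors went both ways, 3 higher and 2 lower of 7, beside 1392 of all 13738 genes tested called in each direction. Cdkn2a, the locus of p16 and p19Arf, rose by 2.32, from a mean of 8.30 to 38.7 CPM (adj. P-value 0.00534), and its neighbour Cdkn2b fell by 0.84 (adj. P-value 0.0464). Among 14 other cyclins, Ccnf, an SCF ubiquitin ligase subunit, was the only one higher (1.46, adj. P-value 0.00980), and 3 were lower, led by Ccnt2 (−1.61, adj. P-value 0.00155). Of 11 upstream genes, Jun was the only one called (−1.01, adj. P-value 0.00599). Mki67 did not pass, at 6.90, 10.9 and 11.7 CPM at passage 4 and 10.4, 22.5 and 11.4 CPM at passage 11 (0.61, adj. P-value 0.191), whereas 5 of 6 proliferation markers did. The median over the 8 cyclins was 1.55, against −0.05 for all genes.

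Single organoids allow the same genes to be read within a culture. In Set 1 the widest ranges on a log scale belonged to Ccnd1, Ccnd2 and Ccne2. There Ccnd1 ran from 205 CPM through a median of 709 to 1274 CPM, and Ccnd2 from 236 through 989 to 1222 CPM. Organoids 1 and 6 of that set held the 2 lowest values of both genes. Organoid 1 was also the deepest library of the experiment, with 11175868 counts, and organoid 6 was the next deepest of Set 1, with 5595426. Ccne2 ran from 5.10 through 17.5 to 35.8 CPM in the same set, and again organoids 1 and 6 were lowest. In Set 3 the SD of log2 CPM was again largest for Ccnd2 (0.688) and Ccne2 (0.604). Ccnd1, at 0.301, was there below Ccnd3 (0.464) and Ccne1 (0.468).

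The biological coefficient of variation between organoids of a set, which removes counting noise, was 0.427 for Ccnd1, 0.420 for Ccnd2 and 0.410 for Ccne2, against a median of 0.277 over all genes tested. These were 1.57, 1.54 and 1.44 times the value fitted for genes of the same abundance. The mitotic cyclins were close to it, at 0.907 times (Ccna2), 1.02 times (Ccnb1) and 0.952 times (Ccnb2), and Ccnd3 was at 0.755 times. With all organoids thinned to the smallest total, Ccnd1 (0.401) and Ccnd2 (0.402) lay below the all-gene median of 0.419, at percentiles 45.4 and 45.9 of all genes against 88.6 and 87.7 before thinning, and Ccne2 was at 0.477. The ratios to genes of the same abundance were 1.391, 1.398 and 1.183 for Ccnd1, Ccnd2 and Ccne2 and 0.889 to 1.00 for the mitotic cyclins. For Ccnd3 most of the spread was of the size of counting noise: its SD of log2 CPM in Set 4 was 0.409, and counting alone gives 0.334. For Ccnd1 in that set the SD was 0.655 and counting gives 0.0497.

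**Figure D3:**
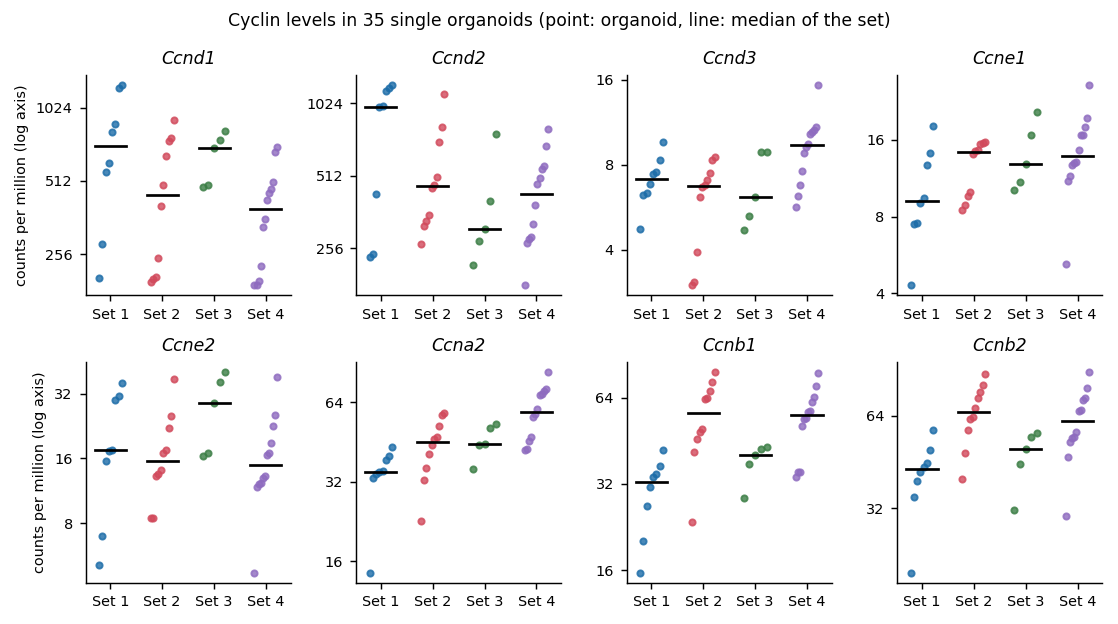
CPM of each cyclin (y axis, log2-spaced) in the 35 kept organoids by set (x axis, Sets 1 to 4 with 8, 10, 5 and 12 organoids), with 1 point per organoid and a black line at the median of the set. Ccnd1 in Set 1 spans 205 to 1274 CPM, while Ccnb1 in Set 3 spans 28.7 to 43.1 CPM.

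Between sets, the organoids of Set 1 had lower Ccna2, Ccnb1 and Ccnb2 and higher Ccnd1 and Ccnd2 than those of Set 4, with 5 of 8 cyclins called beside 20.0% of all genes in either direction. Ccna2 ran from 14.5 through 35.0 to 43.4 CPM in Set 1 and from 42.1 through 58.9 to 83.2 CPM in Set 4 (log2 fold-change −0.83, SE 0.17, edgeR adj. P-value 0.000856 over all 6 comparisons). Only the top organoid of Set 1 reached the range of Set 4. Ccnb1 ran from 15.7 through 32.6 to 41.996 CPM in Set 1 and from 33.8 through 55.8 to 78.1 CPM in Set 4 (−0.89, SE 0.20, adj. P-value 0.00164). Ccnb2 ran from 19.7 through 42.8 to 57.6 CPM in Set 1 and from 30.2 through 61.5 to 89.0 CPM in Set 4 (−0.62, SE 0.18, adj. P-value 0.0157).

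Of the D-type cyclins, Ccnd1 and Ccnd2 were higher in Set 1, and Ccnd3 did not pass. Ccnd3 ran from 4.73 through 7.11 to 9.65 CPM in Set 1 and from 5.67 through 9.37 to 15.4 CPM in Set 4 (−0.35, adj. P-value 0.259). Ccnd1 ran from 190 through 392 to 706 CPM in Set 4, so that its log2 fold-change, Set 1 minus Set 4, was 0.83 (SE 0.28, adj. P-value 0.0449). Ccnd2 ran from 180 through 430 to 798 CPM in Set 4 (0.81, SE 0.28, adj. P-value 0.0464). Both sit close to the threshold, and each was lost in 12 of the 20 fits that left out 1 organoid. The Ccnd1 call was lost without organoid 2, 3, 4, 5 or 8 of Set 1 or organoid 1, 2, 3, 5, 9, 14 or 15 of Set 4 (adj. P-values up to 0.120, values 0.68 to 0.96 over all 20). The Ccnd2 call was lost without organoid 2, 4, 5, 7 or 8 of Set 1 or organoid 1, 2, 5, 6, 12, 14 or 15 of Set 4 (adj. P-values up to 0.102, values 0.70 to 0.94). The 3 mitotic cyclins passed in all 20. Ccne1, with medians of 9.25 CPM in Set 1 and 13.8 CPM in Set 4, missed the threshold (−0.62, adj. P-value 0.0554), and passed without organoid 7 or 8 of Set 1 or 14 or 15 of Set 4.

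Against Set 2, Set 1 was lower in Ccnb1 and Ccnb2, 2 of 8 cyclins, beside 14.3% of all genes. Ccnb1 ran from 23.6 through 56.7 to 78.8 CPM in Set 2 (−0.89, SE 0.20, adj. P-value 0.00237), and Ccnb2 from 39.8 through 65.7 to 87.5 CPM (−0.65, SE 0.18, adj. P-value 0.0141). Both calls held in each of the 18 fits that left out 1 organoid. Ccnd1 and Ccnd2 had estimates of 0.62 and 0.59 that did not pass (adj. P-values 0.167 and 0.181).

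Against Set 3, 1 of 8 cyclins was called, beside 9.43% of all genes. Ccnd2 was 404, 274, 765, 218 and 307 CPM in organoids 1, 3, 4, 5 and 6 of Set 3, and Set 1 was higher by 1.05 (SE 0.36, adj. P-value 0.0481). That call was lost without organoid 1, 3, 5 or 6 of Set 3 or organoid 2, 4, 5, 7 or 8 of Set 1 (adj. P-values up to 0.125). Ccnb1 in Set 3 was 28.7, 43.1, 37.5, 42.3 and 40.5 CPM, and its difference from Set 1 of −0.30 did not pass (95% confidence interval −0.78 to 0.19).

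Among Sets 2, 3 and 4, 1 of the 3 comparisons gave called cyclins. Between Sets 2 and 4, Ccna2 (−0.49, adj. P-value 0.0343) and Ccnd3 (−0.66, adj. P-value 0.0216) were lower in Set 2, 2 of 8 beside 12.4% of all genes. The Ccna2 call was lost without organoid 2, 7 or 9 of Set 2 or organoid 1, 2, 6 or 9 of Set 4 (adj. P-values up to 0.0750). Ccnd3 ran from 3.00 through 6.74 to 8.52 CPM in Set 2 and from 5.67 through 9.37 to 15.4 CPM in Set 4. Between Sets 2 and 3 edgeR called 0 of 8 cyclins, beside 3.93% of all genes, with 2 of 8 at an unadjusted P-value below 0.05, and limma-voom and DESeq2 called 0 as well. Ccnb1 passed there only when organoid 7 of Set 2 was left out (adj. P-value 0.0296). Between Sets 3 and 4 edgeR also called 0 of 8, beside 11.6% of all genes, with 4 of 8 at an unadjusted P-value below 0.05, and 0 with limma-voom and with DESeq2. Mki67 passed in none of the 6 comparisons, its medians being 276, 383, 308 and 294 CPM in Sets 1 to 4.

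**Figure D4:**
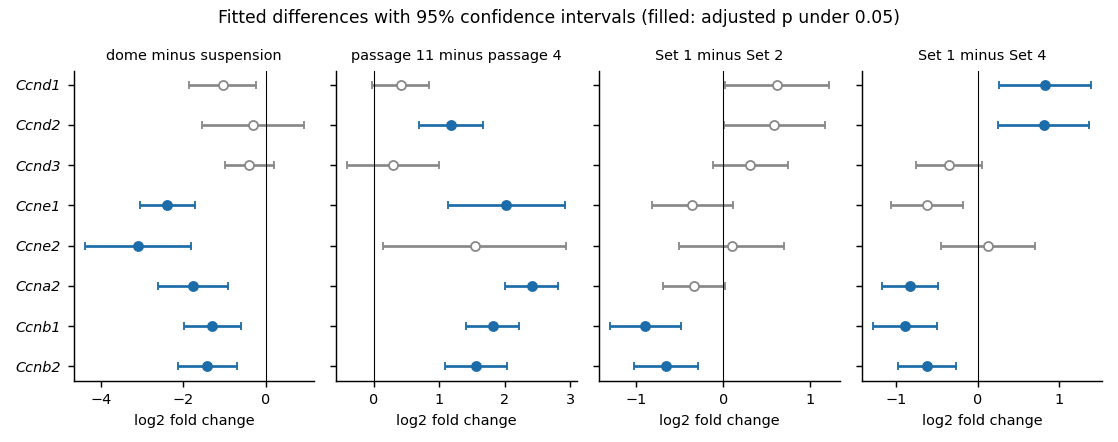
Log2 fold-change (x axis) with 95% confidence interval for each cyclin (y axis) in 4 comparisons, from edgeR. Filled points passed at an adj. P-value of 0.05: 5 in dome minus suspension, all below 0, 5 in passage 11 minus passage 4, all above 0, and 2 and 5 in Set 1 minus Set 2 and Set 1 minus Set 4.

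The other cell cycle genes did not follow 1 direction in Set 1. E2f2, an activator E2F, was higher than in Sets 2, 3 and 4 by 1.65, 1.67 and 1.36 (adj. P-values 4.14e-06, 0.000137 and 2.80e-05), whereas E2f1 differed by −1.30 from Set 3 and by −1.21 from Set 4 (adj. P-values 0.00545 and 0.00211). Rb1, the retinoblastoma gene itself, was higher in Set 1 than in Sets 2 and 4 (0.80 and 1.18, adj. P-values 0.0375 and 0.00141). Foxm1, which drives transcription of mitotic genes, was lower in Set 1 than in Set 2 (−1.07, adj. P-value 0.000220). Kinases called between Set 1 and the others were all lower in Set 1, 1 of 5 against Set 2 (Cdk1, −0.68, adj. P-value 0.0121), 1 against Set 3 (Cdk2, −0.95, adj. P-value 0.00814) and 3 against Set 4 (led by Cdk4, −0.80, adj. P-value 0.00229). Cdc20 was lower in Set 1 than in Set 4 (−0.99, adj. P-value 0.000769), and the Cdk inhibitor Cdkn1a higher by 0.75 (adj. P-value 0.0165). Cdkn1c, another inhibitor, was lower in Set 1 than in Set 4 (−1.23, edgeR adj. P-value 0.0120). Between these 2 sets, 1 inhibitor was higher and 2 were lower of 7, 2 and 4 of 17 in the E2F, MuvB and Foxm1 list, 1 and 3 of the mitotic entry list, and 1 and 6 of the proteolysis list. Lgr5, a Wnt target and co-receptor of the upstream list, was lower in Set 1 than in Set 2 (−3.04, adj. P-value 8.41e-05) and than in Set 4 (−2.31, adj. P-value 0.00294).

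Set 1 single organoids, at passage 11, had lower Ccna2, Ccnb1 and Ccnb2 than Set 4 organoids at passage 4, while all 3 bulk cultures labelled passage 11 had higher levels of these genes than the same cultures labelled passage 4. The single-organoid comparison is between 2 mice and the bulk comparison within 3 mice. In bulk, Set 1 labelled passage 11 had 60.9, 60.3 and 67.1 CPM of Ccna2, Ccnb1 and Ccnb2. Bulk Set 4 labelled passage 4 had 13.6, 24.4 and 34.2 CPM of these genes. The tables were made from mRNA and total RNA, respectively. Whether the bulk passage cultures grew in domes or suspension is not given here. Whether the directions differ was not tested. The bulk direction rests on passage labels that the counts do not check. The tables were also normalised separately and differ in scale. Mki67 had medians of 276 to 383 CPM in the sets of organoids. Its medians were 10.9 CPM in the bulk cultures labelled passage 4 and 11.4 CPM in those labelled passage 11.

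Within a set, few pairs of cyclins could be shown to vary together from organoid to organoid. Over Sets 1, 2 and 4, 132 relations were computed between the 8 cyclins, Mki67 and library depth, and 1 passed after Benjamini-Hochberg adjustment. This was Ccna2 with Ccnb1 in the 12 organoids of Set 4, with Pearson r = 0.873 (permutation P-value 0.00016, adj. P-value 0.0211) and Spearman rho = 0.818 (permutation P-value 0.00165, adj. P-value 0.0972). Without the 2 organoids farthest from the median of Ccna2, r was 0.865. The same pair had r = 0.730 in Set 1 and 0.741 in Set 2 (exact and permutation adj. P-values 0.103), which fell to 0.0982 and 0.0887 without the 2 farthest organoids. Leaving out those organoids also narrows the range of Ccna2, so the fall does not show that the relation rests on them. Spearman rho over all organoids was 0.619 in Set 1 and 0.503 in Set 2 (permutation adj. P-values 0.398 and 0.412).

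Ccnd1 and Ccnd2 had similar coefficients in all 3 sets, none of which passed the adjustment. Pearson r was 0.881 in Set 1 (exact permutation P-value 0.00570, adj. P-value 0.0837), 0.801 in Set 2 (permutation P-value 0.00436, adj. P-value 0.0837) and 0.802 in Set 4 (permutation P-value 0.00255, adj. P-value 0.0766). Spearman rho was 0.857, 0.867 and 0.699 (permutation P-values 0.0107, 0.00212 and 0.0145, adj. P-values 0.160, 0.0972 and 0.174). Without the 2 farthest organoids r was 0.565, 0.727 and 0.801. Ccnb1 and Ccnb2 gave r = 0.840, 0.837 and 0.599 in Sets 1, 2 and 4, with adj. P-values of 0.0837, 0.0766 and 0.160 by permutation (exact in Set 1), and 0.396, 0.614 and 0.367 without the farthest 2.

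Between Ccnb2 and both Ccnd1 and Ccnd2 the coefficients were negative in Sets 2 and 4. In Set 1 they were positive but not distinguishable from 0 (exact permutation P-values 0.719 with Ccnd1 and 0.465 with Ccnd2). With Ccnd3 the order of signs differed, r being −0.282 in Set 1, 0.301 in Set 2 and −0.00796 in Set 4. Ccnb2 and Ccnd2 had r = −0.735 in Set 4 (permutation P-value 0.00680, adj. P-value 0.0887), −0.534 in Set 2 and 0.318 in Set 1. Ccnb2 and Ccnd1 had r = −0.711 in Set 4 (permutation P-value 0.00961, adj. P-value 0.0972), −0.722 in Set 2 and 0.158 in Set 1. Without the 2 organoids farthest from the median of Ccnb2, r in Sets 1, 2 and 4 was −0.608, −0.122 and −0.886 with Ccnd2 and −0.648, −0.551 and −0.676 with Ccnd1. Leaving out those organoids also narrows the range of Ccnb2, so the changed sign in Set 1 does not show a relation. In Set 1 the coefficients with library depth were r = −0.843 for Ccne2 and −0.824 for Ccne1 (exact permutation P-values 0.0101 and 0.0129, adj. P-value 0.0972 for both). They were −0.759 for Ccnd2 and 0.729 for Ccnd3 (exact permutation adj. P-values 0.148 and 0.160). None of the 24 relations between a cyclin and depth passed the adjustment. In Sets 2 and 4 the coefficients of the 8 cyclins with depth lay between −0.443 and 0.413. The part of depth in the relations of Set 1 was not tested.

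**Figure D5:**
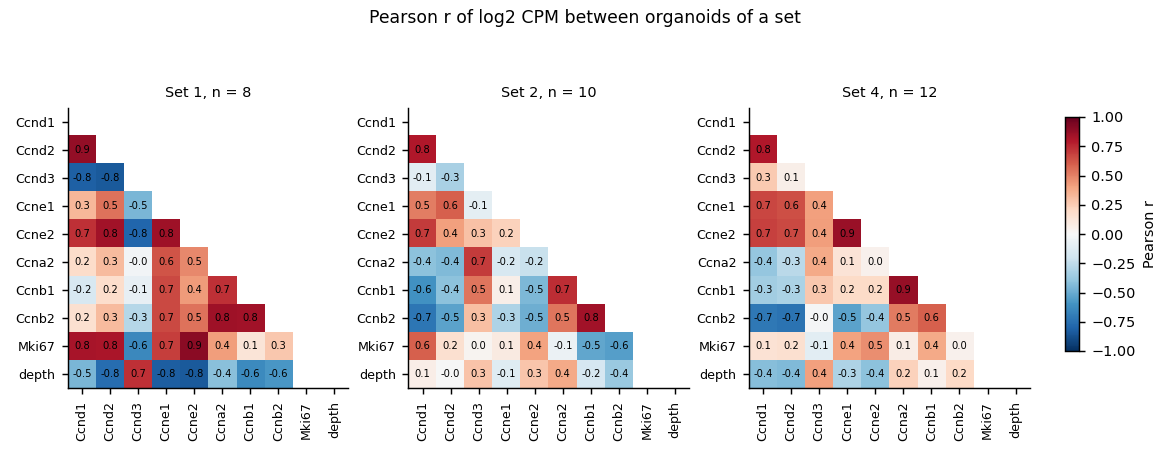
Pearson r of log2 CPM between pairs of cyclins, Mki67 and depth (log10 of the total counts of a library) over the organoids of Sets 1, 2 and 4 (n = 8, 10 and 12). Red cells are positive and blue cells negative, and Ccnd1 with Ccnd2 is red in all 3 sets (0.801 to 0.881).

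The genes most like each cyclin over the 35 organoids, after set means were removed, are given as a description over 6487 or 6488 genes whose mean log2 CPM was 4 or more. Birc5 (survivin, of the chromosomal passenger complex) was among the top 3 for Ccna2 (r = 0.767), Ccnb1 (0.819) and Ccnb2 (0.814). Ccna2 was most like Spc24 (0.782) and Cdc20 (0.771), Ccnb1 like the spindle checkpoint gene Mad2l1 (0.832) and the centromeric histone Cenpa (0.819), and Ccnb2 like Cenpa (0.812) and Cdkn3 (0.790). Ccne1 was most like replication licensing genes, Cdc6 (0.793) and Mcm3 (0.767), together with Aunip (0.774). Ccne2 was most like Atad5 (0.806), Hells (0.798) and Rad18 (0.791). Ccnd1 was most like Nol8 (0.906) and Ddx21 (0.894), 2 nucleolar proteins, and Slc25a24 (0.875). Ccnd2 was most like Hells (0.769), Ccnd1 (0.764) and Mat2a (0.756). Ccnd3 was most like Lsm2 (0.723), Rnf126 (0.719) and Gm10273 (0.708). These points share depth and set-wise composition, and Mki67 was in none of these lists.

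Of the 8 genes, 5 overlap a gene on the other strand, and no source used here states whether counting used strand. The overlapping genes are Exosc9 for Ccna2, LTO1 for Ccnd1, 9330179D12Rik and Gm43126 for Ccnd2, Bysl for Ccnd3 and Ints8 for Ccne2. Bysl reached 38.95 CPM, and Ccnd3 reached 21.9 CPM at most, so without strand the counts of Ccnd3 are uncertain. The same holds for Ccne2, since Ints8 reached 10.5 CPM in the culture table and 7.08 CPM in the passage table, above every Ccne2 level in those tables, and 42 CPM in single organoids. It also holds for Ccna2. Exosc9 reached 15.8 CPM in the culture experiment, where Ccna2 was 4.24 to 30.4 CPM in domes. In the passage experiment Exosc9 reached 7.82 CPM, beside 13.6 to 16.8 CPM of Ccna2 in the summed cultures labelled passage 4. In single organoids Exosc9 reached 45.7 CPM. Ccnb1-ps, a pseudogene of Ccnb1, reached at most 3.82 CPM.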

How the data were processed

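RNA-seq was measured in bulk cultures and single organoids. The authors deposited raw counts per Ensembl gene in 3 tables, from 3′-end libraries with molecular identifiers processed with zUMIs and STAR on GRCm38 (Ensembl 93). The submitters' processing notes also name featureCounts, SAMtools 1.9, R 3.6.3, edgeR 3.28.1 and limma 3.42.2. No source used here states whether the counts are molecules or reads. Bulk libraries used total RNA, and single organoids were extracted directly for mRNA.

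Deposited counts were tested with edgeR 4.0.16 (R 4.3.3) by the quasi-likelihood F-test, after filterByExpr (minimum count 3) and TMM scaling, on the whole table, with Benjamini-Hochberg adjustment at 0.05 (over all 6 comparisons together between sets). SEs were computed from the F statistic. Technical replicates were summed, and 7 organoids removed by the study's quality filter were left out. limma 3.58.1 and DESeq2 1.42.0 were alternatives, besides other scaling, filters, thinning, left-out libraries and a replicate block. The main fits held culture condition, passage or set alone, so only the fits with that block paired cultures. Scripts were tested on simulated data. No replicates agreed within sampling noise. Dome totals ran from 1776490 to 14761853 counts, which limits genes of few counts. Same-numbered domes and suspensions deviated together weakly (correlations 0.126 to 0.145, against −0.0913 to −0.0345 for different numbers). The replicate block takes the numbers to mark shared pools, which the sample labels do not state. Passage cultures of 1 set come from 1 animal.

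The members and gene lists were chosen with earlier results of these data known. Named were all 8 cyclins and Mki67. Each regulator named was the called gene with the largest rise or fall of its list in a comparison. Not all genes that meet this rule are named. For each cyclin the 3 genes most like it were also named. Foxm1 and other regulators follow that rule.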

Additional observations from a re-analysis of the deposited data

Results flagged for a closer look

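In 27 groups of 5 to 10 organoids tested, formed by 8 cyclins and Mki67 in Sets 1 to 3, 1 sample lay far from the others, where chance flags about 1 group in 20. Ccna2 in organoid 1 of Set 1 was 14.5 CPM and the next lowest of the 8 organoids was 33.1 CPM, a gap of 0.646 of the whole range against a critical value of 0.526. The same organoid had the most counts, 11175868. Without it the Ccna2 call between Sets 1 and 4 held, as it did in all 20 fits that left out 1 organoid (log2 fold-change −0.92 to −0.71).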

How the results depend on the processing

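Over all alternatives, 158 of 196 counts of called cyclins stayed within 1.5 times the reported count and 38 moved, and of 1548 values for single cyclins 1459 kept their side of the threshold, 69 lost and 20 gained a call, and 0 changed sign while called. Thinning to the smallest total left 2 called cyclins between domes and suspension, 1 between Sets 1 and 2, 0 between Sets 1 and 3, 2 between Sets 1 and 4 and 0 between Sets 2 and 4. Between Sets 1 and 3 the single call was 0 with limma-voom, the replicate block, all 42 organoids, adjustment within the comparison or library totals only. Between Sets 1 and 4 the count was 2 with all 42 organoids and 3 with library totals only. Between Sets 2 and 4 it was 0 with the replicate block and 1 with all 42 organoids or library totals only. The causes were not tested. Leaving out 1 library gave 5 to 7 called cyclins between domes and suspension, 5 to 6 between passages, 2 to 2 between Sets 1 and 2, 0 to 1 between Sets 1 and 3, 3 to 5 between Sets 1 and 4, 0 to 1 between Sets 2 and 3, 1 to 2 between Sets 2 and 4 and 0 to 0 between Sets 3 and 4. The fits with library totals only, and those leaving out single organoids of Sets 1, 2 and 4, were chosen after seeing the data.

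With the replicate block, 6 cyclins were called between domes and suspension (Ccnd1 was gained) and 5 between passages. Numbers of single organoids mark no shared origin (median correlation of same-numbered organoids 0.0403), and the block gave 2, 0, 4, 0 and 0 calls for Sets 1 and 2, 1 and 3, 1 and 4, 2 and 3, and 2 and 4. Depth limits Ccne2 in bulk most, with at most 9 counts in any summed passage culture.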

Other observations

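The 7 organoids outside the study's quality filter had cyclin levels mostly within the range of the 35 kept ones. Ccna2 was 24.3 to 75.0 CPM in them and 14.5 to 83.2 CPM in the kept organoids, and Ccnb1 was 28.8 to 60.9 CPM against 15.7 to 78.8 CPM. Ccne2 ran from 6.23 to 48.8 CPM, with 2 of 7 above the highest kept organoid (40.4 CPM). For Ccnd1 1 of 7 exceeded the kept range, at 1548 CPM against 1274 CPM.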
